A study of Mus musculus with 8 samples.

Results

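The genes described here encode the core of the spliceosome and the SR and hnRNP proteins that bind pre-mRNA, in LSK cells of mouse bone marrow. Members were all genes whose symbol begins with Hnrnp, Srsf, Sf3a, Sf3b, Snrp, Prpf or Lsm followed by a digit or letter, or with U2af. The array annotation named 74 such genes, and 71 of them had signal, out of 10720 genes tested. The 71 comprise 19 hnRNP genes, 9 SR genes, 12 genes of the SF3 complexes and U2AF, 8 Snrp genes of the small nuclear ribonucleoproteins, 11 Prpf genes and 12 Lsm genes. The other 3, Srsf12, Snrpn and Prpf40b, were listed at 0 on every array and carry no measurement. A further 19 probe sets that list a member symbol together with other genes were left out, since their signal cannot be given to 1 gene.

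LSK stands for marrow cells without lineage markers but positive for Sca-1 and Kit, among which are the stem cells of blood and their earliest progeny. RNA was taken from LSK cells of conditional Msi2 knockout (KO) mice, labelled Msi2KO, and of control mice, labelled WT. Each group had 4 replicates, and each replicate had its own Affymetrix array. The sample labels do not say whether a replicate is a separate mouse or a pool of mice. Msi2 encodes Musashi-2, an RNA-binding protein. The Cre driver, the time after deletion and the age of the mice are not given in the sources used here. In bulk RNA, fewer cells of a type and less RNA per cell cannot be told apart.

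The spliceosome removes introns from pre-mRNA. U2AF and the U2 particle, with its SF3a and SF3b complexes, recognise the branch site and the 3′ splice site. Rings of Sm and LSm proteins hold the small nuclear RNAs, and the PRP proteins build and drive the catalytic core. SR proteins mostly promote, and hnRNP proteins often oppose, the use of the exons they bind. Mutations of SF3B1, SRSF2 and U2AF1 are frequent in human myelodysplastic syndromes.

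The arrays also differed in measures outside the splicing genes. Relative to the control mean, the signal of the 4 bright Msi2 probe sets was 72.6%, 63.4%, 15.1% and 40.5% on KO 1 to KO 4, and between 91.1% and 111% in the controls. KO 3 had the largest 3′ minus 5′ difference of the actin control probe sets, 0.287 against -0.118 to 0.133 on the other 7 arrays. The log2 signal of Xist, an RNA made by the silenced X, was 4.79 to 5.55 on KO 1, KO 2 and control 1 and 11.92 to 12.51 on KO 3, KO 4 and controls 2 to 4; values are given below within these sets of arrays. The log2 signal of Kit was 8.82, 9.19, 9.02 and 9.13 on KO 1 to KO 4 and 8.39, 8.68, 9.16 and 8.59 on control 1 to control 4, while Ly6a, which encodes Sca-1, had no probe set of its own. Of 7 LSK markers measured 6 averaged lower in KO, and their mean deviation from the control mean was -0.10, 0.10, -1.36 and -0.05 on KO 1 to KO 4 and -0.15 to 0.12 in the controls. Among T cell markers 5 of 6 were listed at 0 and the other had no probe set of its own. Of the erythroid markers all 8 measured genes averaged higher in KO, and their mean deviation from the control mean was 0.28, 0.79, 2.21 and 1.13 on KO 1 to KO 4 and lay between -0.60 and 0.68 in the controls. Hba-a1 and Alas2 of that list were at 0. Of the mast cell and basophil markers 5 of 7 averaged higher, with a mean deviation of 0.27 to 1.21 in KO and -0.60 to 0.42 in the controls. Macrophage markers averaged higher for 6 of 7 genes (-0.27 to 1.38 in KO, -1.12 to 0.65 in control; C1qa and Cd14 at 0) and granulocyte markers for 5 of 6 (-0.06 to 0.52 and -0.86 to 0.43; Ltf and Camp at 0). Both B cell markers measured averaged lower (-1.40 to -0.34 in KO, -0.65 to 0.50 in control), with Cd79a, Ebf1, Pax5 and Igll1 at 0, as did 3 of 4 endothelial and stromal markers (-0.87 to -0.28 and -0.05 to 0.05), with Kdr, Col1a1, Col3a1 and Cxcl12 at 0. The part of these array differences in the results on the splicing genes was not tested, except where values within arrays of like Xist or without an array are given.

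No splicing gene passed the threshold of 0.05 on the adjusted p of limma, a linear model fitted to all genes with moderated variances. The count was 0 of 71 members and 0 of 10720 genes (0%), with a smallest adjusted p among the members of 0.230. At an unadjusted p under 0.05 there were 6 members (8.45%), 4 of them higher and 2 lower in KO, against a background of 11.4% of all genes (5.74% higher and 5.66% lower). The 4 KO values were all above or all below the 4 control values for 7 members (9.86%), 3 above and 4 below the controls, where 7.11% of all genes did so (3.63% above and 3.48% below). These shares lie near their backgrounds. The first count depended on single arrays: it was 2 without KO 2, 3 without control 2 or control 3, and 9 without KO 1. The count without overlap was 15 without KO 3 and 11 without KO 1, control 1 or control 4. Fewer arrays make overlap rarer for every gene. The shares of all genes with the same arrays left out are not given here. The counts with an array left out therefore cannot be set against the shares of all genes above.

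The differences were small. Of the 71 members, 51 (71.8%) lay within 0.2 of 0 on the log2 scale, as did 54.8% of all genes tested. Only Sf3a2 and Sf3b4 differed by more than 0.5 (2.82% of the members, 11.6% of all genes). These shares are not matched for signal or spread. A mean signal of at least 11 was found for 24 of 71 members and 580 of 10720 genes. The median SD of the members was 0.19 in KO and 0.15 in control, against 0.29 and 0.23 over all genes. The median difference, KO minus control, was -0.02 over the members and 0.00 over all genes, with 34 members higher and 37 lower. The 95% interval of the difference lay wholly within 0.5 of 0 for 41 members and within 1 for 68, so a doubling or halving of signal was outside the interval for all but Sf3a2, Sf3b4 and Srsf5.

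**Figure D1:**
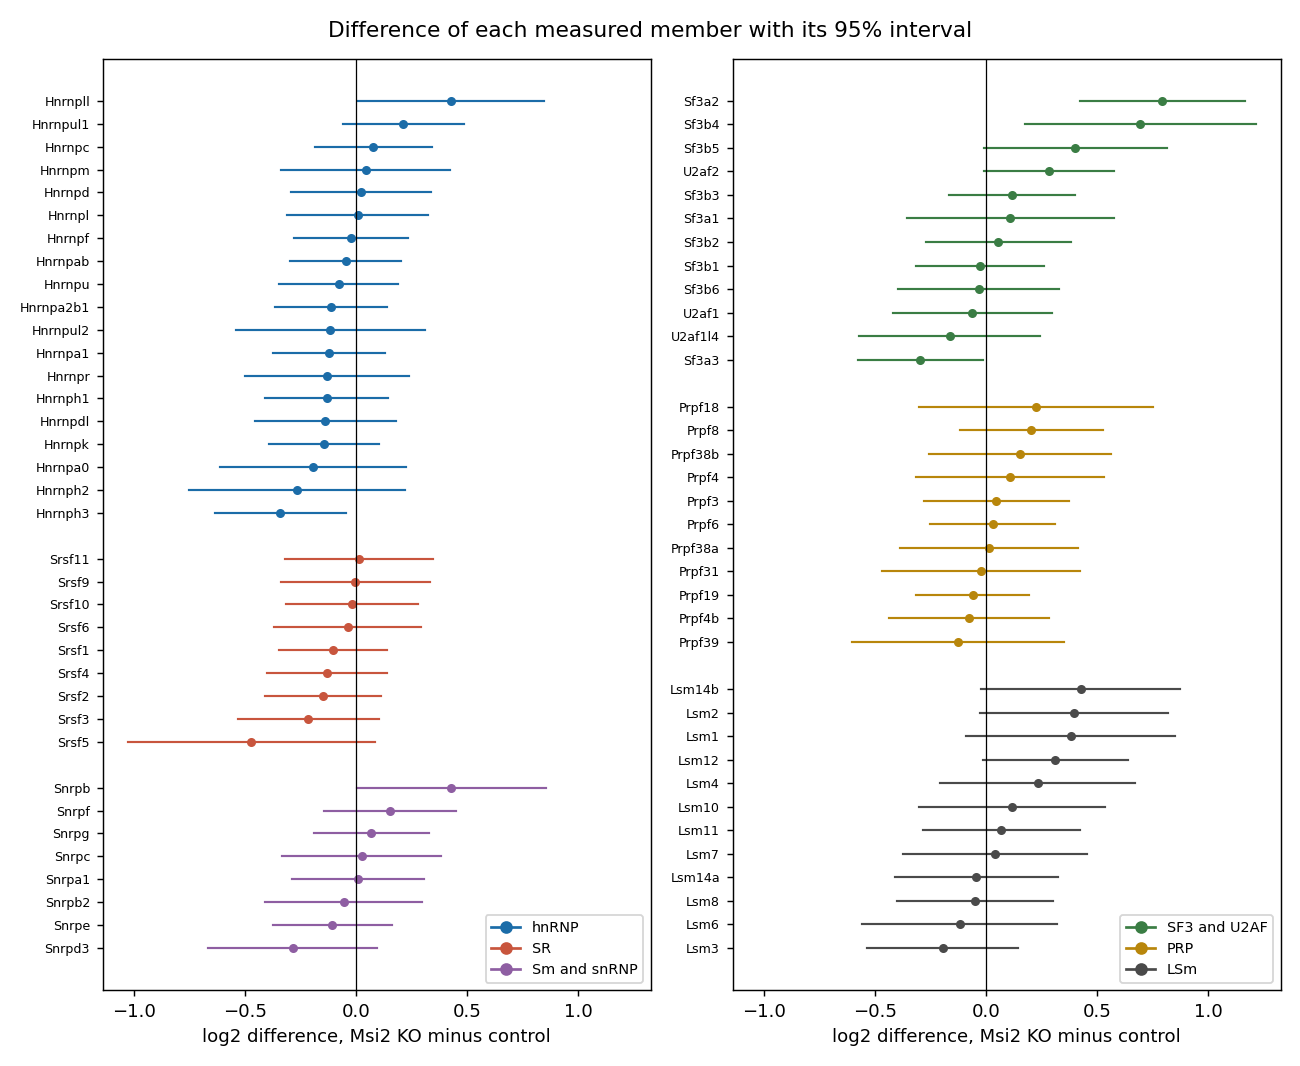
Log2 difference of signal, Msi2 KO minus control, for each of the 71 measured members, grouped by family; points are limma estimates and bars their 95% intervals (4 arrays a group). Sf3a2 (0.79) and Sf3b4 (0.69) lie farthest to the right and Srsf5 (-0.47) farthest to the left, and 8 of 9 SR genes lie left of 0.

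The SF3a complex, which joins the U2 particle to the branch site, held the member with the smallest p. Its 3 subunits did not share a direction. Sf3a2, the subunit known as SF3A66 in human cells, had a log2 signal of 9.80, 9.97, 9.44 and 9.50 on KO 1 to KO 4, against 9.04, 9.05, 8.70 and 8.76 on control 1 to control 4. Every KO array lay above every control array, by at least the distance from 9.05 to 9.44. The mean was 9.68 ± 0.25 in KO and 8.89 ± 0.19 in control (SD, n = 4 each), a difference of 0.79 ± 0.17 (SE) or 1.73-fold, with a limma adjusted p of 0.230 (0.130 to 0.482 over the alternatives). The exact two-sided permutation p was 0.0286, the smallest that 4 arrays against 4 can give. Among the arrays of low Xist the difference was 0.85, and among those of high Xist 0.64. Sf3a2 was read by a single probe set, whose identifier ends in _s_at, a suffix of sets that can match more than 1 transcript.

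Sf3a3, the SF3A60 subunit, stood the other way. Its signal was 11.50, 11.19, 11.44 and 11.42 on KO 1 to KO 4, against 11.80, 11.70, 11.59 and 11.64 on control 1 to control 4. The groups did not overlap, and the difference was -0.30 ± 0.13 (SE), with a limma adjusted p of 0.428. A second, dimmer probe set of Sf3a3 gave -0.22 and its groups overlapped. Sf3a1, the largest subunit, gave 0.11, with an interval of -0.36 to 0.58.

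The promoters of Sf3a2, Sf3a3 and Hnrnph3 are shown because they are the members of smallest p in each direction: Sf3a2 among those higher in KO, and Hnrnph3 and Sf3a3 among those lower. Each window runs from 250 bases before to 50 bases after the annotated start, from RefSeq's annotation of GRCm38.p6, in the 5′ to 3′ direction of the gene. Capitals mark CCGGAA, the core of the site bound by ETS factors, and GGGCGG, the GC box, on either strand.
Sf3a2 (chr10:80798485-80798784, plus strand): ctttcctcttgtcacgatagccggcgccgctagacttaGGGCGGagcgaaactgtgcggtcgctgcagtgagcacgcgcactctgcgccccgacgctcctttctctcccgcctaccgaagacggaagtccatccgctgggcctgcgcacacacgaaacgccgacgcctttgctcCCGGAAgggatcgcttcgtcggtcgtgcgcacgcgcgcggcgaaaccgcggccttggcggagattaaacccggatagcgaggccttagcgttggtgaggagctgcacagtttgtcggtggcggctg
Sf3a3 (chr4:124714611-124714910, plus strand): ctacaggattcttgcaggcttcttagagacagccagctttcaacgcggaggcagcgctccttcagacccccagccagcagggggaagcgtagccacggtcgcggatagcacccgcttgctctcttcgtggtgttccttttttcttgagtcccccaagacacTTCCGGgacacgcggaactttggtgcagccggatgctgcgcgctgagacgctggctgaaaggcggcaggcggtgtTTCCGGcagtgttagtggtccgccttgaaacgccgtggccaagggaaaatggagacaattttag
Hnrnph3 (chr10:63023800-63024099, minus strand): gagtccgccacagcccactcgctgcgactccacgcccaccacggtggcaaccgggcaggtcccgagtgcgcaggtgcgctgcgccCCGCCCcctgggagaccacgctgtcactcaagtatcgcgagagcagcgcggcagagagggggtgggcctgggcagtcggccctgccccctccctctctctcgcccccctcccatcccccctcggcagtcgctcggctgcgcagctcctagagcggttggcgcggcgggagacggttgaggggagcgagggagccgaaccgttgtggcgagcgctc

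CCGGAA is in the promoters of all 3 SF3a genes. Sf3a2 carries it once and Sf3a3 at 2 places, and the signals of these 2 genes stood in opposite directions. Hnrnph3 carries no match to CCGGAA. A promoter window was matched for 61 of the 71 members. CCGGAA, searched on both strands, was in 28 of them (45.9%), against 29.7% of the promoters of all genes tested and 15.2% of all promoters in the table. By family it was in 5 of 7 Snrp promoters, 6 of 9 of SF3 and U2AF, 6 of 10 Prpf, 5 of 9 SR, 6 of 17 hnRNP and 0 of 9 Lsm promoters. GGGCGG was in 67.2% of the member promoters, against 64.5% of those of genes tested and 35.9% of all. CCAAT was in 49.2%, 38.9% and 37.9% of the same 3 sets, and TATAAA in 8.2%, 7.0% and 14.2%. All searches covered both strands, and matches of CCGGAA and GGGCGG can share bases. A match is a description of the sequence only, and a relation of the matches to the differences in signal was not tested.

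The SF3b complex grips the branch point adenosine. Of its subunits with an Sf3b symbol, 4 of 6 averaged higher in KO. Sf3b4, an RNA-binding subunit that contacts the pre-mRNA near the branch site, read 7.41, 7.36, 6.67 and 6.94 on KO 1 to KO 4, against 6.93, 6.10, 6.23 and 6.34 on control 1 to control 4. Control 1 lay above KO 3 and just below KO 4, so the groups overlapped. The difference was 0.69 ± 0.23 (SE), 1.62-fold, with a limma adjusted p of 0.354 and an exact two-sided permutation p of 0.0571. Sf3b5, a small subunit of the core, gave 0.40 on its brightest probe set, with KO 1 (8.99) inside the control range. A second probe set of Sf3b5 gave 0.47 and had all KO arrays (9.0 to 9.45) above all controls (8.54 to 8.95), with a limma adjusted p of 0.426 over probe sets. The third and dimmest set of Sf3b5 gave -0.09, with overlapping groups.

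Sf3b1, the subunit mutated in myeloid disease, had a difference near 0 on its brightest probe set. It read 11.82, 11.96, 11.89 and 11.74 on KO 1 to KO 4, against 11.71, 11.87, 12.07 and 11.88 on control 1 to control 4. The difference was -0.03, with an interval of -0.32 to 0.26. Its 3 other probe sets gave 0.01, -0.05 and, on the dimmest, 0.36, where KO lay at 7.76 to 8.0 and control at 7.18 to 7.96, with overlap (interval -0.06 to 0.79). Sf3b2 gave 0.06, Sf3b3 0.12 and Sf3b6, which contacts the branch point adenosine, -0.03.

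U2AF is a dimer of a large subunit, U2af2, which binds the polypyrimidine tract, and a small subunit, U2af1, which reads the AG of the 3′ splice site. U2af2 read 9.65, 9.89, 9.57 and 9.77 on KO 1 to KO 4, against 9.56, 9.26, 9.49 and 9.42 on control 1 to control 4. The groups did not overlap, though KO 3 and control 1 lay next to each other, and the difference was 0.28 ± 0.13 (SE) with a limma adjusted p of 0.456. U2af1 read 9.78, 9.78, 10.35 and 10.13 on KO 1 to KO 4, against 10.14, 10.07, 9.96 and 10.11 on control 1 to control 4. KO 1 and KO 2 lay below the controls, KO 3 above them and KO 4 within their range, and the difference was -0.06 (interval -0.42 to 0.30). U2af1l4, a paralogue of U2af1, gave -0.16.

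**Figure D2:**
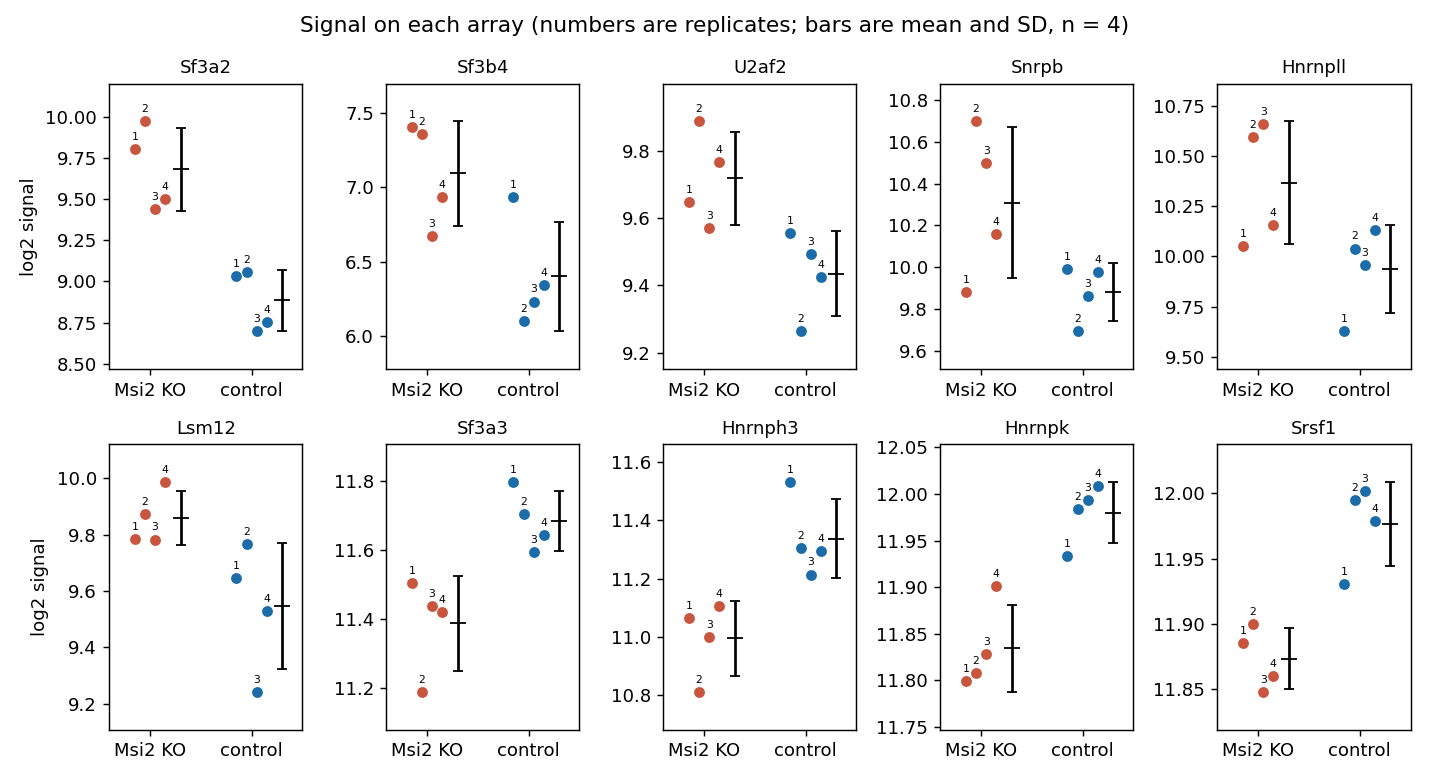
Log2 signal on each of the 8 arrays for 10 members, with Msi2 KO left of control in each panel; numbers are replicates and bars the mean and SD (n = 4). Axes differ between panels and do not start at 0. Sf3a2, U2af2, Lsm12, Sf3a3, Hnrnph3, Hnrnpk and Srsf1 have groups that do not overlap, and Sf3b4, Snrpb and Hnrnpll overlap by 1 or more arrays.

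The hnRNP genes, whose proteins coat nascent transcripts, had 13 of 19 members lower in KO (49.6% of all genes were lower) and a median difference of -0.11. Hnrnph3, a G-tract binding protein of the hnRNP H group, read 11.06, 10.81, 10.9999 and 11.10 on KO 1 to KO 4, against 11.53, 11.31, 11.21 and 11.30 on control 1 to control 4. All KO arrays lay below all controls. The difference was -0.34 ± 0.13 (SE), with a limma adjusted p of 0.396, and it was -0.59 among the arrays of low Xist and -0.22 among those of high Xist. Hnrnph1 and Hnrnph2, its relatives, gave -0.13 and -0.27, each with overlapping groups.

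Hnrnpk, which binds C-rich RNA, showed a small but even gap. It read 11.80, 11.81, 11.83 and 11.90 on KO 1 to KO 4, against 11.93, 11.98, 11.99 and 12.01 on control 1 to control 4. The groups did not overlap, yet the difference was only -0.15 ± 0.11 (SE), or 0.904-fold, with a limma adjusted p of 0.657. The 2 other Hnrnpk probe sets gave -0.18 and -0.27, and their groups overlapped. Hnrnpa1 (-0.12), Hnrnpa2b1 (-0.11) and Hnrnpa0 (-0.19), of the A/B group that blocks exon use, stood on the same side.

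The largest difference among the hnRNP genes was on the higher side. Hnrnpll, a regulator of Ptprc (CD45) exon choice in lymphocytes, read 10.05, 10.59, 10.66 and 10.15 on KO 1 to KO 4, against 9.63, 10.04, 9.96 and 10.13 on control 1 to control 4. KO 1 lay below control 4, and the other 3 KO arrays lay above all controls. The difference was 0.43 ± 0.19 (SE) with a limma adjusted p of 0.432, and it was 0.17 without KO 2 and KO 3. A second probe set of Hnrnpll gave 0.52, with KO at 8.40 to 9.19 and control at 8.10 to 8.34. Hnrnpul1, a relative of Hnrnpu, gave 0.21, while Hnrnpab, an A/B-type protein, gave -0.05 at a signal of 13.67 ± 0.07 in KO and 13.72 ± 0.01 in control (SD, n = 4 each). The remaining hnRNP genes lay between -0.14 (Hnrnpdl) and 0.08 (Hnrnpc).

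The SR genes had 8 of 9 members lower in KO, with a median of -0.10 and none at an unadjusted p under 0.05. Srsf5 had the widest gap. It read 10.42, 9.80, 10.95 and 10.85 on KO 1 to KO 4, against 10.94, 11.05, 11.17 and 10.75 on control 1 to control 4. KO 1 and KO 2 were low while KO 3 and KO 4 lay within the control range. The difference of -0.47 ± 0.25 (SE; limma adjusted p 0.50) was -0.83 among the arrays of low Xist, -0.09 among those of high Xist and -0.24 without KO 2.

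Srsf1, the founding SR protein, was the SR gene whose groups did not overlap. It read 11.89, 11.90, 11.85 and 11.86 on KO 1 to KO 4, against 11.93, 11.99, 12.00 and 11.98 on control 1 to control 4. The difference was -0.10 ± 0.11 (SE; limma adjusted p 0.769), and the 6 other Srsf1 probe sets gave -0.19 to 0.01. Srsf2, which binds exonic enhancers and is mutated in myeloid disease, read 10.77, 10.71, 10.94 and 10.86 on KO 1 to KO 4, against 10.94, 11.0033, 11.0003 and 10.93 on control 1 to control 4. KO 3 lay level with the lowest controls and the other KO arrays below, and the difference was -0.15 (interval -0.41 to 0.11). Srsf3, a short SR protein that also acts in mRNA export, gave -0.22 on its brightest probe set and -0.23 to 0.08 on the 5 others. Srsf4 gave -0.13, and Srsf6, Srsf9, Srsf10 and Srsf11 lay between -0.04 and 0.01. When all probe sets of each gene were averaged, the SR median was -0.03.

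The KO arrays differed among themselves in these 2 families and in the others. On KO 1 to KO 4 the median deviation of the hnRNP genes from the control mean was -0.16, -0.17, 0.07 and -0.04, against -0.05 to 0.03 in the controls. For the SR genes it was -0.17, -0.15, 0.01 and -0.12, against -0.04 to 0.07 in the controls. KO 1 and KO 2 thus lay below every control for both families, KO 4 for the SR genes only, and KO 3 for neither. The SD of the 4 KO medians was 0.11 for the hnRNP genes, 0.08 for SR, 0.12 for SF3 and U2AF and 0.12 for Snrp. It was 0.17 for Prpf, 0.10 for Lsm and 0.02 for all genes tested. In every family KO 3 had the highest median of the KO arrays. A relation to the Msi2 signal of the arrays was not tested. Among the arrays of low Xist (2 KO, 1 control) the hnRNP median was -0.11 and the SR median -0.20, and among those of high Xist (2 KO, 3 controls) they were -0.03 and -0.08. In the low set 15 of 19 hnRNP and 6 of 9 SR genes were lower, and in the high set 11 and 8. KO 2 was the lowest of the 8 arrays for 20 of the 71 members (28.2%), against 13.3% of all genes, and the highest for 9 (12.7%), against 12.7%. KO 3 was the highest for 23 (32.4%), against 23.1%, and the lowest for 3 (4.23%), against 20.5%.

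**Figure D3:**
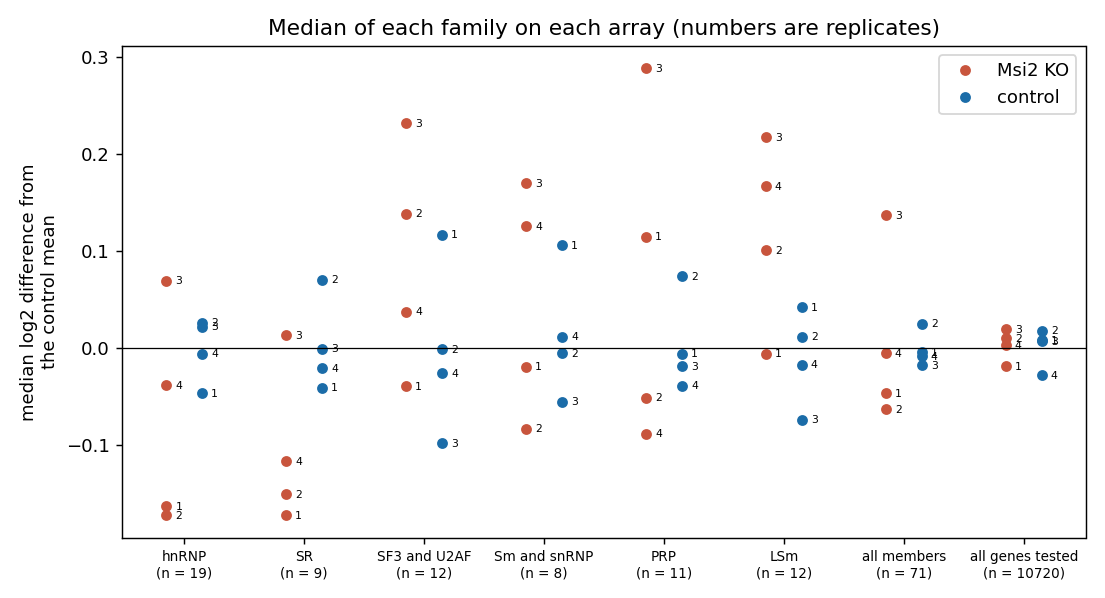
Median over the genes of each family of the log2 difference from the control mean, on each array, with Msi2 KO left of control; numbers are replicates. For hnRNP and SR genes KO 1 and KO 2 lie at -0.17 to -0.15 and KO 3 at 0.01 to 0.07, and for all genes tested every array lies within 0.03 of 0.

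Taken over all members, the sign of the difference also went with the brightness of the probe set, though not to the same degree in every family. Of the 24 members with a mean signal of at least 11, 19 (79.2%) were lower in KO, with a median of -0.11, while 53.4% of the 580 genes tested at that brightness were lower (median -0.02). Among the hnRNP genes 10 of 11 bright and 3 of 8 dimmer members were lower, and among the SR genes 3 of 3 and 5 of 6. For SF3 and U2AF these counts were 2 of 3 and 3 of 9, and for Lsm 1 of 1 and 3 of 11. For Snrp they were 2 of 4 and 1 of 4, and for Prpf 1 of 2 and 3 of 9. Of the 47 dimmer members 18 were lower, with a median of 0.02, beside 5007 of 10140 dimmer genes tested (median 0.00). The other splicing genes described at the end had 15 of 24 bright genes (62.5%) and 39 of 105 dimmer genes lower, with medians of -0.03 and 0.08. Whether the members differ from other genes in this was not tested.

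**Figure D4:**
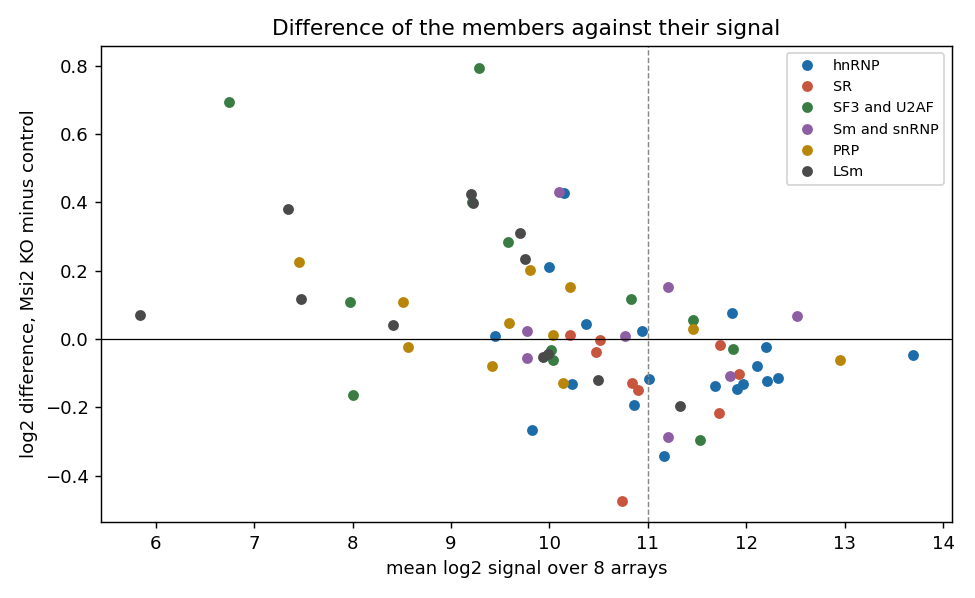
Log2 difference, Msi2 KO minus control, against the mean log2 signal over the 8 arrays for the 71 members, coloured by family; the dashed line marks a signal of 11. Right of the line 19 of 24 members lie below 0, and the members above 0.3 all lie left of it.

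The Snrp genes encode the Sm ring of the U1, U2, U4 and U5 particles and proteins particular to U1 or U2. Higher in KO were 5 of the 8, and the median was 0.02. It was -0.17 among the arrays of low Xist and 0.11 among those of high Xist. Snrpb, which encodes the SmB proteins, read 9.88, 10.70, 10.50 and 10.16 on KO 1 to KO 4, against 9.99, 9.69, 9.86 and 9.98 on control 1 to control 4. KO 1 lay inside the control range and the other KO arrays above it, a difference of 0.43 ± 0.19 (SE; limma adjusted p 0.436), which was 0.14 without KO 2 and KO 3. Its second probe set gave 0.30, with KO at 8.84 to 9.13, above the controls at 8.5 to 8.80. Of the other Sm ring genes, Snrpd3 gave -0.29, Snrpe -0.11, Snrpf 0.15 and Snrpg 0.07, all with overlapping groups. Snrpa1 and Snrpb2 of the U2 particle gave 0.01 and -0.06, and Snrpc of the U1 particle 0.02.

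Of the PRP genes 7 of 11 were higher, with a median of 0.03, and none reached an unadjusted p under 0.05. Prpf8, the large protein at the heart of the catalytic core, read 9.77, 9.67, 10.14 and 10.02 on KO 1 to KO 4, against 9.65, 9.80, 9.59 and 9.75 on control 1 to control 4. KO 3 and KO 4 lay above the controls and the other 2 within their range, a difference of 0.20 (interval -0.12 to 0.53). Prpf19, the ubiquitin ligase of the Prp19 complex, gave -0.06, Prpf18, which acts in the second step of splicing, 0.22, and Prpf38b 0.15. Prpf3, Prpf4, Prpf6 and Prpf31, of the U4/U6.U5 tri-snRNP, lay between -0.02 and 0.11.

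The Lsm genes had 8 of 12 members higher and a median of 0.09. Of these genes Lsm2 to Lsm8 encode the ring on U6 RNA. In the cytoplasmic ring of mRNA decay Lsm1 takes the place of Lsm8, and Lsm2 to Lsm7 are shared. Lsm12 read 9.79, 9.88, 9.78 and 9.99 on KO 1 to KO 4, against 9.65, 9.77, 9.24 and 9.53 on control 1 to control 4. The groups did not overlap, with control 2 just under the lowest KO array, and the difference was 0.31 ± 0.15 (SE; limma adjusted p 0.460). A second probe set of Lsm12 gave 0.00. Lsm14b, a protein of translational repression granules, gave 0.43, Lsm2 0.40, Lsm1 0.38 and Lsm4 0.23, all with overlapping groups. Within the U6 ring 3 of 6 measured members were higher and 3 lower, with Lsm3 at -0.20 and Lsm6 at -0.12. The Lsm median was 0.20 without control 4, 0.16 without control 1 and 0.04 without control 3.

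Probe sets of 1 gene often differed. The 71 members had 181 probe sets with signal, of which 0 passed limma's adjusted threshold in the fit on 24404 probe sets (0% of them) and 12 (6.63%) had an unadjusted p under 0.05, against 9.72% of all. Of the 43 members with several probe sets, 27 had probe sets of both signs, 10 had all lower and 6 all higher. The widest gap was in Prpf19, where 3 bright probe sets gave -0.06, 0.06 and 0.03 and a dimmer one gave 0.76. That dimmer set read 6.45, 6.64, 7.09 and 6.60 on KO 1 to KO 4, against 5.49, 6.17, 5.67 and 6.39 on control 1 to control 4, without overlap (limma adjusted p 0.400). For Hnrnpc, which binds uridine tracts, the 3 sets gave 0.08, 0.20 and -0.49, and for Snrpd3 -0.29, 0.50 and -0.09. The 3 Srsf2 sets gave -0.15, 0.04 and 0.33. Prpf6, Srsf11, Sf3a1 and Sf3b5 also had sets of both signs. In Snrpd3, Prpf6, Srsf11 and Sf3a1 1 set had a group mean below 5, near the lower end of the signal.

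**Figure D5:**
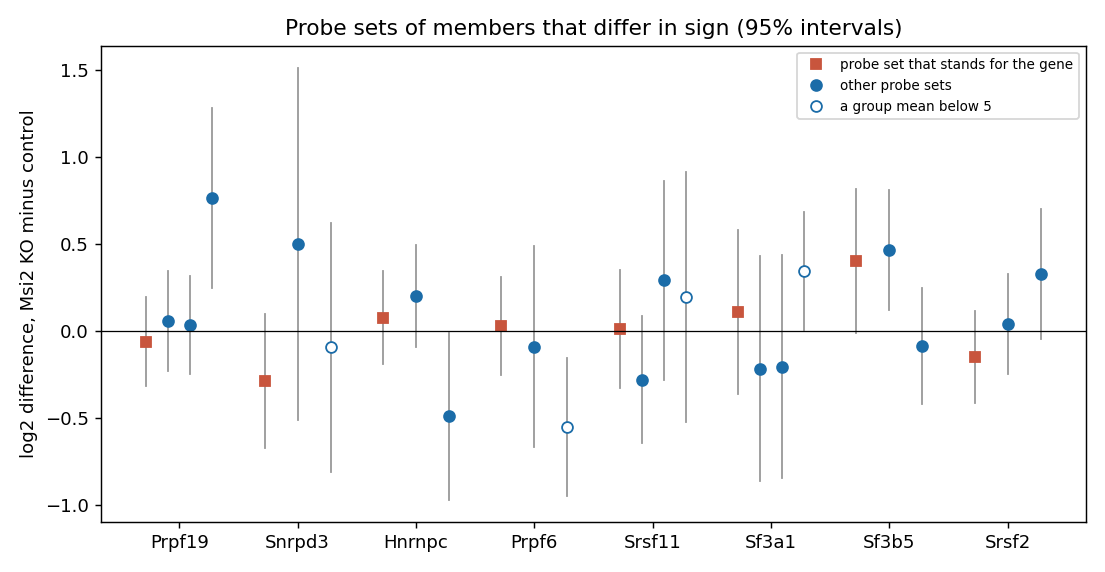
Log2 difference, Msi2 KO minus control, with 95% intervals for the probe sets of the 8 members with the widest gap between probe sets of opposite sign, ordered from the brightest set on the left. Squares are the sets that stand for the gene and open symbols have a group mean below 5; the dimmest Prpf19 set lies at 0.76 and its other sets within 0.06 of 0.

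Other genes of the splicing pathway gave values of like size. Of 129 such genes measured, in 8 lists from particle proteins to nonsense-mediated decay, 0 passed limma's adjusted threshold. An unadjusted p under 0.05 was found for 13 (10.1%, beside 11.4% of all genes), 10 of them higher in KO and 3 lower, and the median was 0.04. Among SR protein kinases, which phosphorylate the RS domains of SR proteins, 3 of 6 were at an unadjusted p under 0.05. Srpk2 read 9.30, 9.39, 8.86 and 9.31 on KO 1 to KO 4, against 9.48, 9.61, 9.75 and 9.60 on control 1 to control 4, a difference of -0.39. Clk2 gave 0.41 and Srpk1 0.30, with all KO arrays above the controls for both. The kinases thus stood on both sides of 0 (limma adjusted p 0.397 for Srpk2, 0.403 for Clk2 and 0.423 for Srpk1).

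Of the Prp19 complex and the release factors, 15 of 26 were higher, with Cdc40, a second-step factor, at 0.49 and the helicase gene Dhx8 at 0.69. Of the regulators of splice site choice, 17 of 27 were lower. Rbm5 gave -0.44 and Mbnl3, of the muscleblind family, 0.42, both without overlap and with limma adjusted p of 0.304 and 0.343. Of the genes of snRNP assembly 10 of 14 were higher (median 0.15), with Gemin8 at 0.52 and Gemin5 at 0.37. The list mean of the assembly genes was 0.12, -0.08, 0.38 and 0.12 on KO 1 to KO 4 and -0.10 to 0.13 in the controls, so the groups overlapped. Of the U1, U2 and U5 proteins outside the member symbols 14 of 24 were higher, with Luc7l at 0.41 and Sart1 at 0.27. The list of exon junction complex genes and SR-related coactivators had 11 of 16 higher, with the coactivator genes Sfswap at 0.65 and Son at -0.21. Genes of the minor spliceosome had 6 of 9 higher, with Snrnp25 at 0.26 and Zcrb1 at -0.19, and of nonsense-mediated decay 6 of 7, with Smg6 at -0.29 and Smg8 at 0.28.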

How the data were processed

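The authors deposited log2 signals per probe set, and the submitters' processing notes name RMA. A value of exactly 0 on all 8 arrays was found for 20664 (45.8%) of 45101 probe sets; these were omitted, and the step that set them to 0 is not stated. Column medians of the rest were 7.03 to 7.08. Probe sets were named by the platform annotation, updated through gene IDs with a RefSeq table of GRCm38.p6 (34958 with 1 gene, 932 with several, 9211 with none). The probe set with the highest mean over the 8 arrays stood for its gene.

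All 10720 genes were fitted with limma 3.58.1 in R 4.3.3, Msi2 KO against control, two-sided, with Benjamini-Hochberg adjustment. Alternatives covered normalization, low signals, the choice of probe set, limma settings, Xist, the replicate block and left-out arrays. Promoters came from RefSeq's GRCm38.p6 table. Exact permutation tests used all 70 assignments of single genes. Simulated arrays of 10720 genes had 200 genes changed in KO against control. Of these, 119 were recovered at a log2 change of 1, with 11 false calls, and 188 at 2, with 7 false calls. The simulated noise was drawn independently for each gene and array. Every member differed by less than 1, so these rates do not cover differences of the size seen in the members. Named in full were the 3 members of each family with the smallest p and the brightest, those at an unadjusted p under 0.05 or without overlap, and Sf3b1, Srsf2, U2af1 and Prpf8; some relatives were named after their values were seen. Members and lists were chosen with earlier results of these data known. Same-numbered KO and control arrays deviated together with correlations of 0.14, -0.17, 0.08 and -0.02, so the numbers were not taken as pairs.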

Additional observations from a re-analysis of the deposited data

Results flagged for a closer look

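1 of the 68 groups of 4 arrays looked at held an array far from the other 3, where chance alone gives about 1 in 20. Among the controls, Srsf3 read 11.90 on control 2 and between 11.80 and 11.81 on the other 3, a gap of 0.89 of the whole range. The KO arrays of Srsf3 lay between 11.31 and 11.85.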

How the results depend on the processing

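No member passed limma's adjusted threshold under any of the 18 alternatives (lowest adjusted p 0.130), and 19 of the 27 members named in full kept their sign in all. Over all genes, 4 passed with Xist as a covariate and 1 without Msi2 KO 1 (0 to 1 over the left-out arrays). Of single probe sets, 1 passed with repeated quantile normalization, 1 with sets below the median signal left out, 2 with an intensity trend and a robust prior, and 1 with array weights (0 to 1 over the left-out arrays). Members at an unadjusted p under 0.05 numbered 10 with the intensity trend, 3 with the replicate block and 3 without KO 2 and KO 3 together (2 to 9 over the left-out arrays). The replicate block changed no adjusted call. Members without overlap numbered 19 without KO 2 and KO 3, a choice made after seeing the data, and 7 to 15 over the left-out arrays. Fewer arrays make overlap rarer for every gene. The shares of all genes under these settings are not given here. The counts of members under the alternatives therefore do not set the members apart from other genes. The SR median was -0.0316 with the mean of all probe sets. The median of SF3 and U2AF genes was -0.0288 without _a_at, _s_at and _x_at probe sets and -0.0493 without KO 2 and KO 3. Leaving out those probe sets removes Sf3a2 and puts another set in place for Sf3a3, Sf3b2, Sf3b5 and Sf3b6. The Lsm median ran from 0.0427 to 0.2046 over the left-out arrays. The median of all members ran from -0.06 to 0.02, of the Snrp genes from -0.02 to 0.06 and of the Prpf genes from -0.03 to 0.11, so these 3 took both signs. The cause of these shifts was not tested. The number of arrays, 4 a group, limits the precision, with a median half-width of the members' 95% intervals of 0.34.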
